A study of Mus musculus with 12 samples.

Results

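The comparison is between splenic B cell lymphomas of mice with and without floxed alleles of the tumour suppressor p53, 6 pBIC tumours against 3 BIC tumours. These 9 libraries, of 12 in the series, were chosen by the model name in their titles, and no measured value entered the choice. The study profiled RNA from reporter-positive B cells of the spleen, sorted as live B220+ cells, with 1 library per mouse. BIC mice were Blimp1F/F IKK2castopF/stopF Cg1Cre/+, and the cells were sorted as B220+GFP+. pBIC mice carried p53F/F in addition to the same alleles and were sorted the same way. Loss of Blimp1, a repressor needed for plasma cell differentiation and encoded by Prdm1, and a constitutively active form of IKK2, which turns on canonical NF-kB signalling, are therefore shared by both groups. The Cre recombinase is driven from the IgG1 constant gene, so the alleles recombine in B cells that transcribe it, as germinal centre B cells do, and the host's other cells keep p53. The 3 remaining libraries, YC (YFPstopF/+ Cg1Cre/+, sorted as B220+YFP+), came from normal controls; they entered no test here, and their levels are given as a description on the same scale. The labels call both tumours models of ABC-DLBCL, the lymphoma subtype named after activated B cells, and give neither the sex nor the age of the mice, nor which p53 exons are floxed.

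p53, encoded by Trp53, is a transcription factor held at a low level by the ubiquitin ligase Mdm2 and its partner Mdm4, and it accumulates after DNA damage or oncogene activation. It then induces genes for cell cycle arrest (Cdkn1a, which encodes the CDK inhibitor p21), for cell death (Bax, Bbc3, Phlda3) and for DNA repair, and it induces Mdm2, which closes a feedback loop. p21 keeps the DREAM complex on the promoters of mitotic and replication genes, and DREAM recognises short elements known as CHR near the start site of mitotic genes. Loss or mutation of p53 is a known event in human lymphoma of this kind.

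Stretches of promoters are shown for p53 target genes lower in pBIC and for some mitosis genes higher in pBIC, all with a motif match. They were taken from RefSeq windows on GRCm38 that run from 250 bases before to 50 bases after a gene's start. Of the 16853 genes tested below, 11034 had such a window, of 300 bases. The p53 half-site, searched on both strands, was in the windows of 8.24% of these genes and of 15 of the 37 p53 target genes with a window (40.5%). The share was no higher among the 10 target genes with a window that were lower in pBIC, of which 4 (40%) held it. Their stretches are printed 5′ to 3′ on the gene's own strand, with the half-site in capitals, and the number after the coordinates is the distance of its first base from the start. Only exact matches to the half-site pattern are in capitals, and near matches stay in lower case. The spacing given between half-sites therefore need not be that of a bound site.
Cdkn1a, chr17:29090894-29090949, plus strand, -73 and -51 (2 half-sites with 12 bases between them): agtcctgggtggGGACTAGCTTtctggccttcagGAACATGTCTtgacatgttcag
Ccng1, chr11:40755450-40755483, minus strand, -185: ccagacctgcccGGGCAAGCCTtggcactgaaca
Bax, chr7:45467078-45467111, minus strand, -201: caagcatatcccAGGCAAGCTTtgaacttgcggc
Polk, chr13:96519397-96519430, minus strand, -231: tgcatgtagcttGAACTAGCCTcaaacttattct

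The core of the CHR element, TTTGAA on either strand, was in the windows of 17 of 26 mitosis genes (65.4%) and of 14.8% of all genes with a window. Its share was 19.1% among all genes called higher in pBIC, 12% among all called lower and 14.5% among those not called. The 5 mitosis genes shown were higher in pBIC, with TTTGAA or its complement in capitals.
Ttk, chr9:83834684-83834713, plus strand, 7: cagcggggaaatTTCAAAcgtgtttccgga
Ccnb2, chr9:70421533-70421562, minus strand, 4: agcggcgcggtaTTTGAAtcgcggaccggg
Bub1b, chr2:118598231-118598260, plus strand, 40: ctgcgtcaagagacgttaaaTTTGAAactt
Top2a, chr11:99024195-99024224, minus strand, -23: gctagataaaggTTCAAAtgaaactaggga
Cdc20, chr4:118437344-118437373, minus strand, -18: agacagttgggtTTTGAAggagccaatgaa
CCAAT, the element bound by NF-Y, was in 22 of the 26 mitosis windows (84.6%) against 42.7% of all windows. It was not particular to mitosis, with 10 of 12 windows of MHC class II genes (83.3%). Among p53 targets it was in 14 of 15 windows for repair, metabolism and feedback (93.3%) and in 4 of 12 for cell death (33.3%). CACGTG, the E-box bound by MYC, was in 6 of 23 windows of the MYC target and ribosome biogenesis genes (26.1%) against 11.3% of all. Its share was higher in the p53 targets for cell death, 6 of 12 windows (50%). In the p53 targets for arrest and for repair it was in 0 of 10 and 0 of 15. A match is a string of letters in a reference window, and binding was not measured.

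Total gene counts of the 9 libraries ran from 35687568 to 47067627, and a gene without counts can be at up to 0.0637 to 0.0841 CPM, which is 3 counts (counting error only). Levels are CPM, counts per 1e6 counts of the library after TMM scaling (trimmed mean of M values). The defining B cell genes Ms4a1, Cd79a, Cd79b and Pax5 were between 160 and 2319 CPM in every one of the 9 libraries. Neutrophil markers differed between and within the groups: their summed level over 16 genes was 1009 CPM in BIC 1, 1667 in BIC 2 and 69.6 in BIC 3, and 6.40 to 89.5 in pBIC, with pBIC 5 above BIC 3. In the 3 YC libraries the sum was 313, 11.4 and 3.43 CPM. Xist, the RNA of the inactive X chromosome, was at 1678 to 1828 CPM in the 3 BIC libraries and at 1485 to 2631 in pBIC 2, 4 and 5, but at 2.57 to 4.20 in pBIC 1, 3 and 6. The Y-linked gene Ddx3y was at 93.2 and 108 CPM in pBIC 3 and 6, at 2.60 in pBIC 1 and at most 0.392 in the others. With the Xist level as a term in the model, 2192 genes were called in place of the 2377 below, and 1664 genes were called in both fits. In a principal component analysis of the 9 libraries the first component held 33.1% of the variance, with the BIC libraries at -100.02 to -82.77 and the pBIC libraries at 5.02 to 105.75; pBIC 1 and pBIC 6 were the pBIC libraries nearest to BIC on it, and the second component (21.4%) set them apart from the rest.

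Trp53 itself (ENSMUSG00000059552.13, GRCm38 chr11:69580359-69591873, plus strand) was lower in every pBIC library. It was at 148, 71.7 and 209 CPM in BIC 1, 2 and 3 and at 25.1, 20.5, 23.1, 32.0, 16.2 and 25 CPM in pBIC 1 to 6, a log2 fold change of -2.60 ± 0.30 (SE; adjusted p = 0.00462). The groups did not overlap, and the remaining signal was 16.5% of the BIC mean on average, between 11.3% in pBIC 5 and 22.4% in pBIC 4. YC libraries had 143 ± 4.62 CPM (SD, n = 3), within the range of BIC. Counts are summed over the whole gene, so exons outside the floxed part, and cells that did not recombine, both count towards what remained.

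The genes next to Trp53 on chromosome 11 did not all behave alike. Just downstream, Atp1b2, a sodium pump subunit (69599736-69605942, minus strand), rose from 0.112 to 2.06 CPM in BIC to 9.82 to 24.6 CPM in pBIC (log2 fold change 3.73 ± 0.79, adjusted p = 0.0168). Sat2, an acetyltransferase gene beyond it (69622024-69623870, plus strand), rose from 0.112 to 1.71 CPM to 5.65 to 26.2 CPM (3.91 ± 0.90, adjusted p = 0.0215). Both were lower in all BIC libraries than in any pBIC library, and Sat2 averaged 0.0149 CPM in YC. Shbg, which lies between them, had 0.0279 to 0.624 CPM in BIC and 1.58 to 12.4 in pBIC (4.23 ± 1.23, adjusted p = 0.0474). Upstream, Wrap53, which is transcribed from the opposite strand, was at 18.9 to 22.1 CPM in BIC and 24.2 to 31.8 in pBIC (0.43 ± 0.17, adjusted p = 0.116). Fxr2, downstream of Sat2, was level at 0.01 ± 0.15 (adjusted p = 0.976). Further out, Zbtb4 fell from 102 to 148 CPM to 10.7 to 46.1 CPM (-2.49 ± 0.43, adjusted p = 0.00912) and Chd3, a chromatin remodeller gene, from 187 to 222 CPM to 7.51 to 52.5 CPM (-2.99 ± 0.53, adjusted p = 0.0100). These neighbours other than Atp1b2 and Sat2 were chosen after the values were seen, and the counts do not separate strands. Atp1b2 and Sat2 were not called without BIC 1 (adjusted p = 0.0918 and 0.111), nor Shbg without BIC 1, BIC 3 or any of pBIC 2 to 5 (up to 0.167).

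Prdm1 and Ikbkb, which encode Blimp1 and IKK2, showed no called difference. Counts are summed over the whole gene, so the altered alleles that both models share were not measured on their own. Prdm1 was at 41.0, 31.5 and 5.33 CPM in BIC and at 0.714 to 21.2 in pBIC (median 10.2; log2 fold change -1.17 ± 0.81, adjusted p = 0.354). Ikbkb was at 380 to 538 CPM in BIC and 451 to 509 in pBIC (0.12 ± 0.15, adjusted p = 0.626), above the 241 ± 19.0 CPM (SD, n = 3) of YC.

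Across all 16853 genes tested, 2377 (14.1%) were called at an adjusted p under 0.05, 1346 higher in pBIC (7.99%) and 1031 lower (6.12%). Of the called genes 2212 had no overlap between the BIC and the pBIC libraries, which held for 22.5% of all genes tested. At least a 2-fold change was found for 920 of the higher and 773 of the lower genes, and the median log2 fold change over all tested genes was 0.08. The pBIC tumours also varied more among themselves: the median SD of log2 CPM was 0.584 in pBIC, 0.327 in BIC and 0.261 in YC. DESeq2 called 23.9% of the genes and limma-voom 14.9%, and 31.7% had an unadjusted edgeR p under 0.05. The number of calls rested on the BIC libraries, with 300 genes called without BIC 1 (1.71% of those tested), 405 without BIC 2 (2.27%) and 1133 without BIC 3 (6.37%). With the neutrophil marker level as a term in the model 7 genes were called (0.0415%). In that fit 2354 of the 2377 genes kept their direction, and the median ratio of the fold change to the one given here was 0.96. The mean of these markers was 4.80, 5.51 and 0.84 log2 CPM in BIC 1, 2 and 3 and -2.69 to 1.19 in pBIC. This level and the genotype cannot be separated with 3 BIC libraries, so the fit does not tell their parts apart. Against BIC 3 alone, the BIC library with the low neutrophil level, 6 genes were called (0.0308%) and 2367 of 2376 kept their direction. In that fit the lone BIC library is assumed to vary like the pBIC libraries, and it was chosen after the data were seen.

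**Figure D1:**
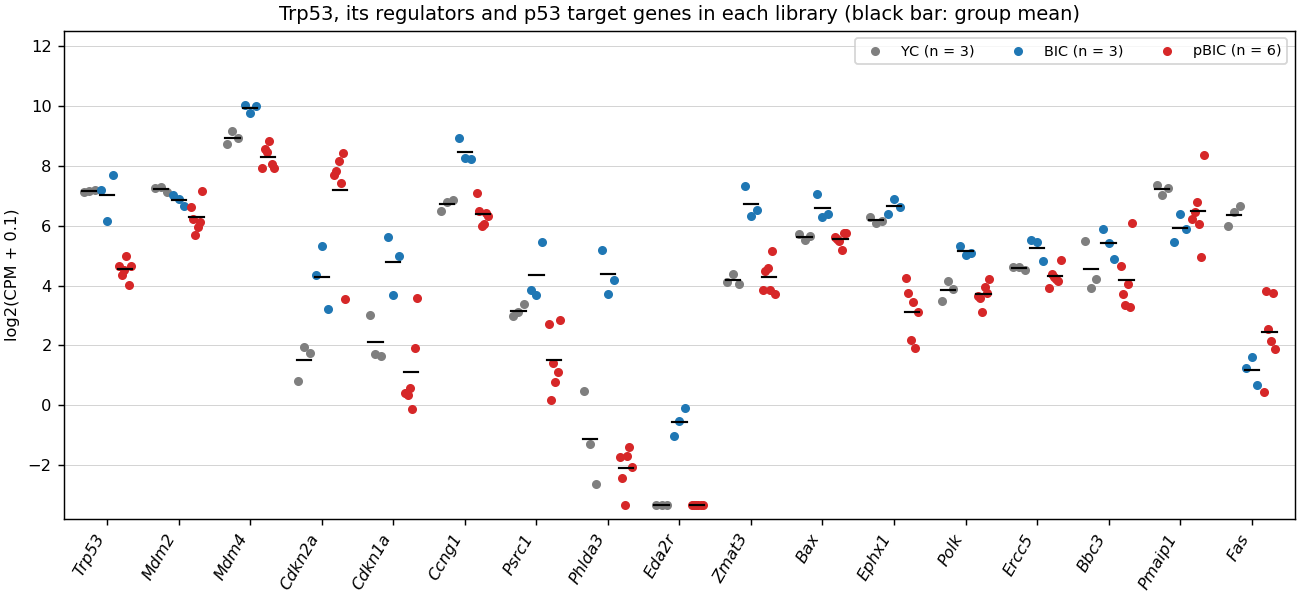
Levels of Trp53, its regulators and p53 target genes, as log2(CPM + 0.1) on the vertical axis, with 1 point per library for 3 YC, 3 BIC and 6 pBIC libraries and a black bar at each group's mean. The BIC and pBIC points do not overlap for Trp53 (71.7 to 209 against 16.2 to 32.0 CPM) or Phlda3 and overlap for Mdm2, Cdkn2a, Bbc3, Pmaip1 and Fas.

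Among the p53 targets for cell cycle arrest, 3 of 12 fell and 1 rose, with a median log2 fold change of -0.22. Among all tested genes 6.12% were called lower and 7.99% higher. Ccng1, cyclin G1, fell from 486, 307 and 300 CPM in BIC to 62.8 to 138 CPM in pBIC (median 82.4; -2.07 ± 0.26, adjusted p = 0.00478). Cdkn1a was at 49.3, 12.8 and 32.0 CPM in BIC and at 1.22, 1.16, 1.4, 0.823, 3.69 and 11.8 CPM in pBIC 1 to 6 (-3.23 ± 0.84, adjusted p = 0.0325). All pBIC libraries were lower than all BIC libraries in Cdkn1a, with pBIC 6 just below BIC 2, and YC averaged 4.71 CPM. Psrc1, a microtubule regulator, fell from 12.7 to 44.2 CPM to 1.03 to 7.08 CPM (-2.78 ± 0.65, adjusted p = 0.0227). Ckap2, a spindle protein, rose from 5.31 to 11.1 CPM to 17.0 to 31.5 CPM (1.76 ± 0.31, adjusted p = 0.00983). Plk2, a kinase also induced by growth signals, was at 657 CPM in pBIC 1 and 1249 in pBIC 6 but at 1.96 to 26.3 in the other pBIC libraries and 4.77 to 40.0 in BIC, and was not called (adjusted p = 0.237). Ckap2 was at 1.15 with the neutrophil term and 1.16 against BIC 3 alone. It was not called without BIC 1 or BIC 2 (adjusted p up to 0.0594), Psrc1 without any BIC library (up to 0.112), and Cdkn1a without any BIC library or pBIC 2, 3 or 5 (up to 0.142).

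Of the p53 targets for cell death, 5 of 17 fell and 1 rose, with a median of -0.55. Phlda3, a repressor of AKT signalling, showed the clearest fall, from 36.6, 13.1 and 18.3 CPM in BIC to 0 to 0.276 CPM in pBIC (-7.18 ± 0.75, adjusted p = 0.00440), and YC was at 0.554 ± 0.648 CPM (SD, n = 3). Eda2r, a death receptor of the TNF receptor family, had 70 counts over the BIC libraries and 0 over the 6 pBIC libraries, at least 48.5-fold lower with 3 counts over the group as the limit. It was also at 0 in YC, and its BIC level was low, at 0.392 to 0.837 CPM. Zmat3, an RNA-binding protein, fell from 161, 79.4 and 92.6 CPM to 13.1 to 35.3 CPM (-2.43 ± 0.34, adjusted p = 0.00559). Bax, a pore-forming death effector, fell from 78.1 to 134 CPM to 36.0 to 54.3 CPM (-1.06 ± 0.20, adjusted p = 0.0125), and Casp1 by less (-0.83 ± 0.23, adjusted p = 0.0397). Pidd1 rose from 18.5 to 23.4 CPM to 36.0 to 52.1 CPM (1.03 ± 0.17, adjusted p = 0.00838). Without BIC 1, 2 of the 17 were called lower (median -0.31), and with the neutrophil term 0 (median -0.36). Against BIC 3 alone 0 were called and the median turned to 0.03, with 9 of the 17 fold changes positive. Bax and Pidd1 lost their calls without BIC 1 (adjusted p up to 0.0713), Eda2r without any BIC library (up to 0.0689) and Casp1 without any BIC library or pBIC 3, 4 or 5 (up to 0.153).

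Well-known death targets were not all lower. Bbc3, which encodes PUMA, was at 29.8 to 58.7 CPM in BIC and at 9.61 to 24.9 CPM in 5 pBIC libraries, but at 67.9 in pBIC 6 (-0.89 ± 0.60, adjusted p = 0.337). Pmaip1, which encodes NOXA, was at 44.1 to 84.3 CPM in BIC and 31.1 to 333 in pBIC, again with pBIC 6 the highest (adjusted p = 0.367). Fas was at 1.51 to 2.93 CPM in BIC and 1.27 to 14.0 in pBIC, against a YC mean of 83.8 (adjusted p = 0.153). The 19 tested targets for repair, metabolism and feedback had a median of -0.41. It came to -0.08 without BIC 1, to -0.16 without BIC 2 and to 0.12 against BIC 3 alone. In the last of these fits 10 of the 19 fold changes were positive. Of these targets 3 fell and 0 rose in the main fit, against 6.12% lower and 7.99% higher among all tested genes. The 3 were Ephx1, an epoxide hydrolase (84.6 to 120 CPM in BIC and 3.64 to 19.0 in pBIC; -3.34 ± 0.46, adjusted p = 0.00522), Polk, a translesion DNA polymerase (32.5 to 39.7 against 8.60 to 18.4 CPM; -1.4 ± 0.23, adjusted p = 0.00830), and Ercc5, an excision repair nuclease (-0.97 ± 0.23, adjusted p = 0.0242). The feedback gene Mdm2 was at 101 to 130 CPM in BIC and at 51.8 to 142 in pBIC, with pBIC 6 above every BIC library (-0.49 ± 0.29, adjusted p = 0.281). Over the 3 target lists pBIC 6 therefore held the highest pBIC level of Cdkn1a, Bbc3, Pmaip1 and Mdm2, with Trp53 at 25 CPM, close to the pBIC median of 24. Against BIC 3 alone the fold change of Ercc5 was -0.51. The call of Polk was lost without BIC 1 (adjusted p = 0.0519) and that of Ercc5 without BIC 1 or BIC 2 (up to 0.124).

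Of 24 genes in the list of p53 and its regulators 3 were called higher and 2 lower, Trp53 included, which is near the 7.99% higher and 6.12% lower among all tested genes. Mdm4 fell from 1044, 864 and 1029 CPM in BIC to 241 to 455 CPM in pBIC (-1.60 ± 0.22, adjusted p = 0.00559). Chek1 and Chek2, the checkpoint kinases that signal DNA damage, rose by 1.96 ± 0.40 (adjusted p = 0.0145) and 0.90 ± 0.23 (adjusted p = 0.0311). Cdkn2a, which encodes p16 and the Mdm2 inhibitor p19Arf from shared exons, was at 20.4, 40.0 and 9.26 CPM in BIC and at 206, 227, 287, 173 and 345 CPM in pBIC 1 to 5 but at 11.7 in pBIC 6 (3.17 ± 0.90, adjusted p = 0.0442). All pBIC libraries but pBIC 6 were above every BIC library, and YC averaged 2.88 CPM. In the BCL2 family 1 of 16 tested members rose and 5 fell. Bcl2l11, which encodes the death activator BIM, rose from 13.9 to 19.6 CPM to 34.5 to 178 CPM (2.44 ± 0.52, adjusted p = 0.0166). The survival genes Mcl1 (-0.91 ± 0.18, adjusted p = 0.0134), Bcl2 (-1.16 ± 0.28, adjusted p = 0.0268), Bcl2l2 (-1.63 ± 0.36, adjusted p = 0.0194) and Bcl2a1b (-2.11 ± 0.60, adjusted p = 0.0443) fell beside Bax; Bcl2a1b has near-identical copies and its counts are uncertain. Phlda3, Ccng1, Zmat3, Ephx1, Mdm4 and Trp53 were called with any 1 library left out. With the neutrophil term the log2 fold change of Chek1 was 1.14. Bax lost its call without BIC 1, and Chek1, Bcl2l11, Mcl1 and Bcl2l2 without BIC 1 or BIC 2 (adjusted p up to 0.0968). Bcl2 lost it without BIC 1, BIC 2 or pBIC 2 (up to 0.124), Chek2 without any BIC library or pBIC 2 (up to 0.144), and Cdkn2a and Bcl2a1b without any of 8 libraries in turn (up to 0.168).

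**Figure D2:**
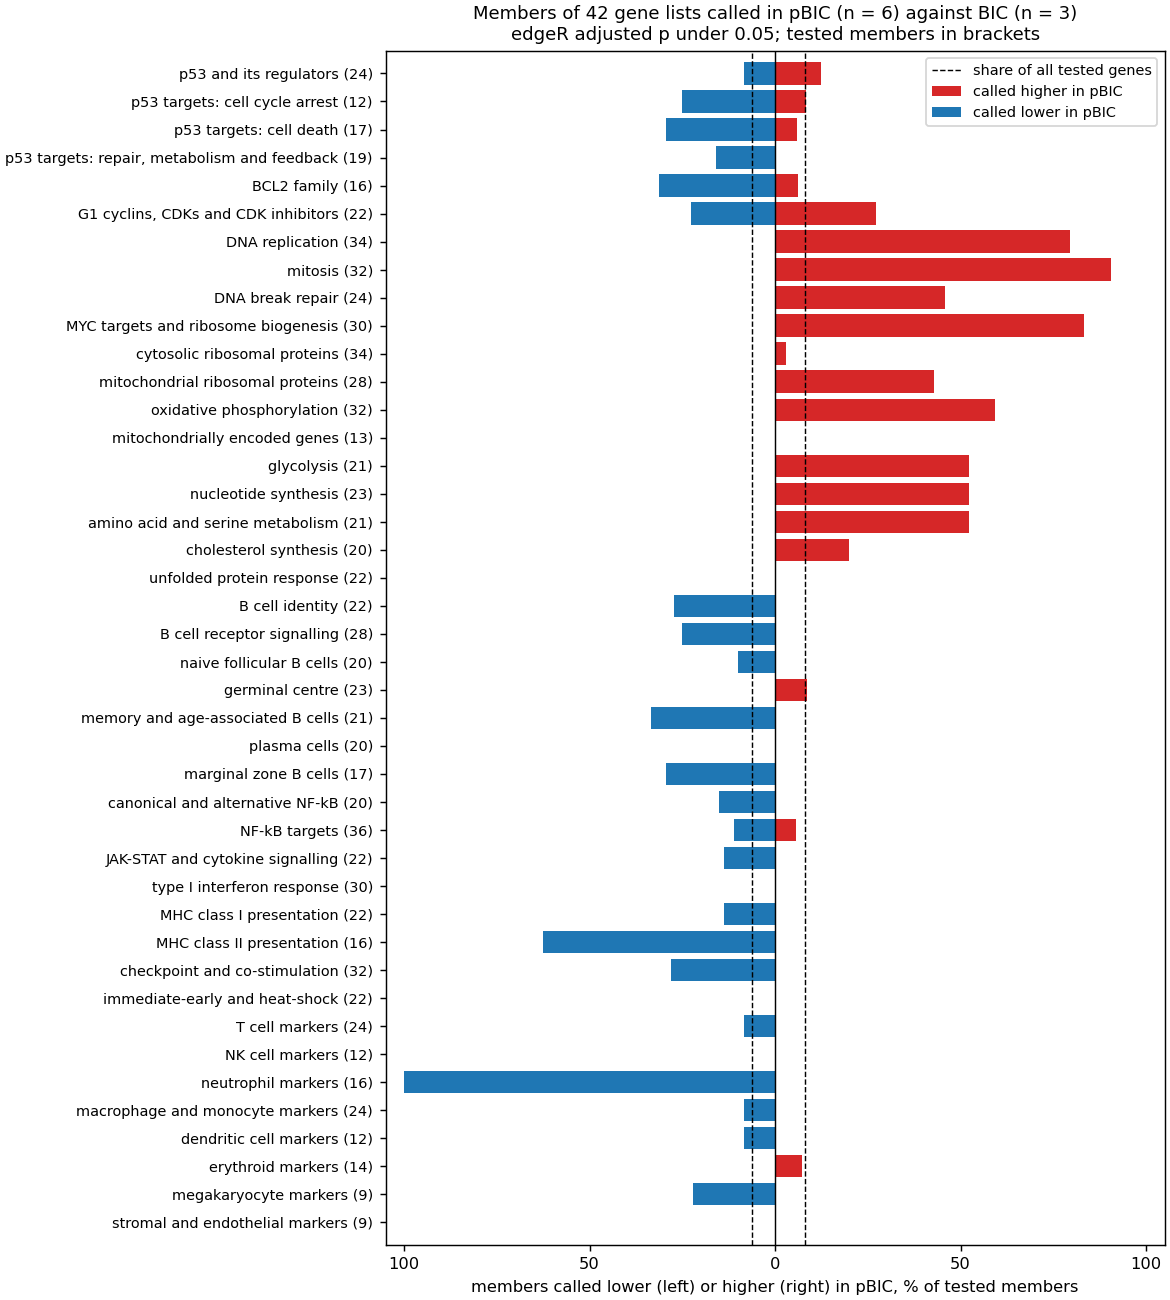
Percent of the tested members of each of 42 gene lists called higher (bars to the right of 0) or lower (to the left) in pBIC than in BIC, with dashed lines at the shares of all tested genes, 7.99% higher and 6.12% lower. Mitosis (29 of 32 members) has the longest bar to the right, and neutrophil markers (16 of 16) and MHC class II presentation (10 of 16) the longest to the left.

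Most listed genes of DNA replication and mitosis were higher in pBIC than in BIC, while G1 regulators were called in both directions. At the entry to S phase, 6 of 22 G1 regulators rose and 5 fell. Cdk6 rose from 31.9 to 41.3 CPM to 111 to 186 CPM (2.01 ± 0.22, adjusted p = 0.00453) and Cdk4 from 116 to 155 CPM to 219 to 399 CPM (1.26 ± 0.22, adjusted p = 0.00945); both are the kinases that cyclin D activates. Ccne1, Ccne2 and Cdk2, of the next kinase step, and Cdkn2a rose as well. The retinoblastoma family genes Rbl2 (80.2 to 87.0 against 26.9 to 39.8 CPM; -1.32 ± 0.17, adjusted p = 0.00478) and Rb1 (191 to 214 against 57.5 to 128 CPM; -1.06 ± 0.24, adjusted p = 0.0211) fell, together with the inhibitors Cdkn1a and Cdkn1b and with cyclin D2 (Ccnd2, -1.12 ± 0.20, adjusted p = 0.0101). Cdk6 and Rbl2 were called with any 1 library left out. Cdk4 was lost without BIC 1 and Ccnd2 without BIC 2 (adjusted p = 0.0627 and 0.0606), Ccne2 and Cdkn1b without either (up to 0.0980), Rb1 without any BIC library (up to 0.0892), Ccne1 also without pBIC 2 or 3 (up to 0.159), and Cdk2 without BIC 1, BIC 2 or pBIC 1, 2, 3, 5 or 6 (up to 0.191).

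In S phase, 27 of 34 DNA replication genes rose and 0 fell, with a median log2 fold change of 1.63. Tyms, thymidylate synthase, rose from 9.73 to 13.1 CPM to 39.1 to 71.3 CPM (2.37 ± 0.24, adjusted p = 0.00440). Mcm10, which helps to start the replicative helicase, rose from 10.5 to 18.9 CPM to 59.6 to 104 CPM (2.45 ± 0.27, adjusted p = 0.00462). The polymerase clamp loader gene Rfc5 rose by 1.49 ± 0.19 (adjusted p = 0.00476).

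In mitosis, 29 of 32 genes rose and 0 fell, with a median of 2.06, and in all 29 the pBIC libraries were above all BIC libraries. Such a lack of overlap held for 2212 of the 2377 called genes and 22.5% of all tested genes, so it came largely with the call. Ttk, a spindle checkpoint kinase, was at 5.16, 4.56 and 7.64 CPM in BIC and at 28.8 to 47.4 CPM in pBIC (2.62 ± 0.27, adjusted p = 0.00440). Bub1b, which encodes the checkpoint protein BubR1, was at 18.8, 19.5 and 34.3 CPM in BIC and at 111 to 239 in pBIC (2.75 ± 0.34, adjusted p = 0.00476). Ccnb2, cyclin B2, rose from 12 to 16.6 CPM to 55.1 to 105 CPM (2.41 ± 0.27, adjusted p = 0.00462), and Aurkb, aurora kinase B, by 2.21 ± 0.26 (adjusted p = 0.00462). These 4 genes were called with any 1 library left out. Top2a and Cdc20, whose promoter stretches are shown above with those of Ttk, Ccnb2 and Bub1b, rose by 2.11 ± 0.27 and 2.74 ± 0.37.

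The mean log2 CPM of the mitosis list was 4.0, 4.02 and 4.77 in BIC 1, 2 and 3 and 5.94 to 6.76 in pBIC, while YC libraries had 6.00, 6.28 and 6.45. The pBIC values lay around those of the normal reporter-positive cells, and the BIC values below both. BIC 3, with 69.6 CPM of neutrophil markers, lay nearer to pBIC than BIC 1 and 2 did but below all 6. Without BIC 1 the mitosis count was 16 of 32 (median 1.87), without BIC 2 also 16 and without BIC 3 26. With the neutrophil term 0 of 32 were called at a median of 1.43, and against BIC 3 alone 0 at a median of 1.62. For DNA replication the counts were 7, 7 and 23 of 34 without BIC 1, 2 and 3, and 0 with the neutrophil term at a median of 1.28. DNA break repair genes rose in 11 of 24 cases and fell in 0 (median 1.11). Rad54l, Rad51ap1, Brca1 and Blm, all of homologous recombination, had log2 fold changes of 1.88 ± 0.26, 2.24 ± 0.32, 1.72 ± 0.25 and 1.94 ± 0.30, each with an adjusted p of at most 0.00727, and Blm was at 1.23 with the neutrophil term.

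**Figure D3:**
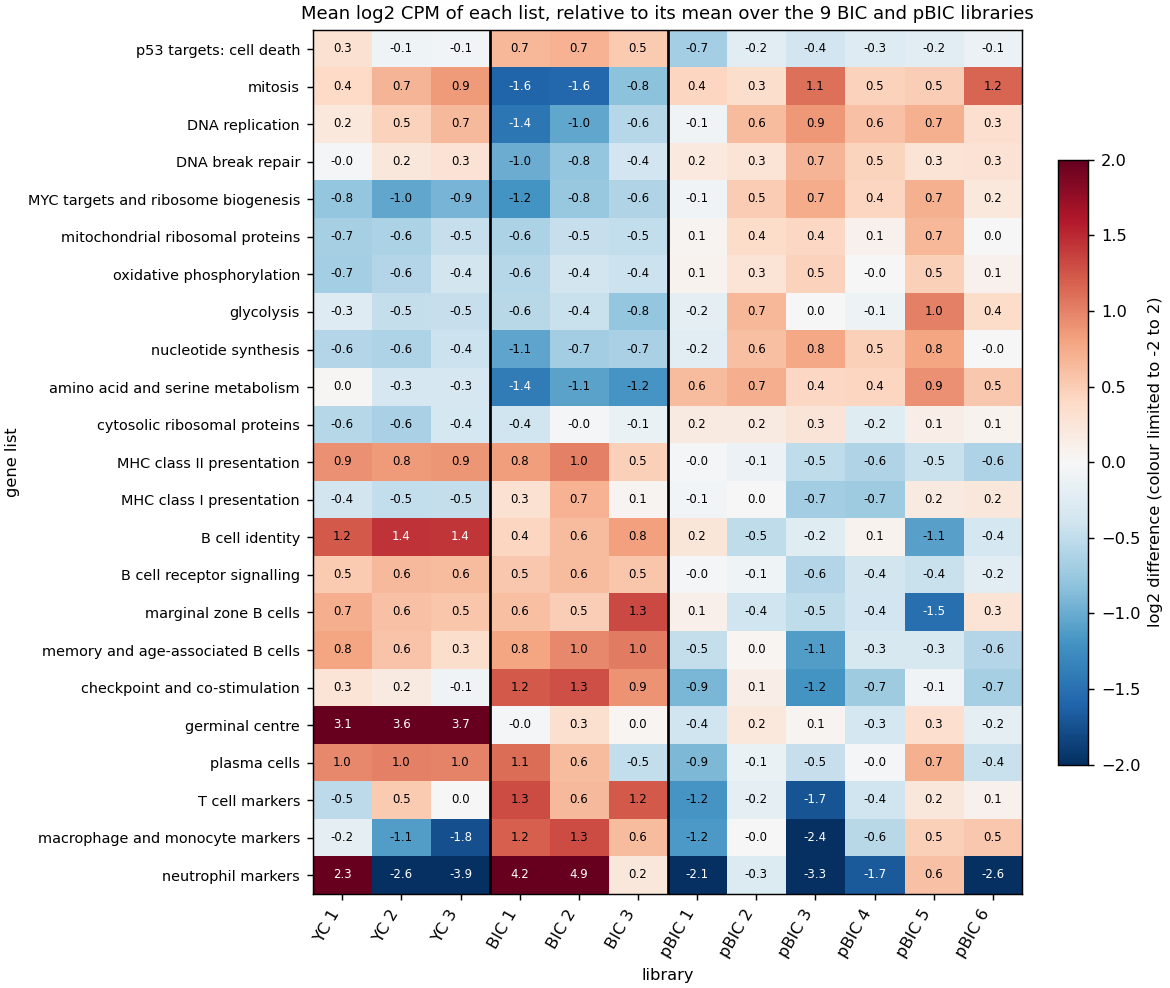
Mean log2 CPM of selected gene lists (rows) in each of the 12 libraries (columns), relative to the list's mean over the 9 BIC and pBIC libraries, on a colour scale limited to -2 to 2 with each value printed in its cell. The rows for mitosis, DNA replication and ribosome biogenesis are higher in all 6 pBIC libraries than in the 3 BIC libraries, and that for MHC class II is lower in all 6.

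Genes for making ribosomes rose with the cell cycle genes. Of 30 MYC targets and ribosome biogenesis factors 25 rose and 0 fell, with a median of 1.31. Mrto4, a ribosome assembly factor, rose from 34.1 to 46.6 CPM to 91.1 to 142 CPM (1.49 ± 0.20, adjusted p = 0.00515). Polr1a, the largest subunit of RNA polymerase I, rose from 111 to 146 CPM to 258 to 361 CPM (1.30 ± 0.18, adjusted p = 0.00559). Nop2 and Gnl3, nucleolar proteins, rose by 1.33 ± 0.22 and 1.77 ± 0.30 (adjusted p = 0.00821 and 0.00909). Myc itself was at 173, 309 and 462 CPM in BIC and at 379 to 1451 in pBIC, with pBIC 2 below BIC 3 (1.51 ± 0.45, adjusted p = 0.0501). The mean log2 CPM of the list was 6.27 to 6.87 in BIC, 7.40 to 8.21 in pBIC and 6.43 to 6.69 in YC, so that here pBIC lay above both other groups. BIC 3 had the highest value of the BIC libraries. Without BIC 1, 2 and 3 the counts were 2, 5 and 17 of 30, and with the neutrophil term 0 at a median of 1.23. Nop2 and Gnl3 were not called without BIC 1 (adjusted p = 0.0564 for each).

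The proteins of the ribosome itself changed less. Among 34 cytosolic ribosomal protein genes 1 rose, against 7.99% of all tested genes, and the median was 0.34 (0.21 without BIC 1). That gene was Rplp0 (2304 to 2762 against 3646 to 5697 CPM, log2 fold change 0.88 ± 0.19, adjusted p = 0.0165). Of 28 mitochondrial ribosomal protein genes 12 rose and 0 fell (median 0.71), among them Mrpl19 (1.2 ± 0.19, adjusted p = 0.00727), Mrpl20 (1.43 ± 0.25, adjusted p = 0.00930), Mrps27 (1.35 ± 0.24) and Mrps22 (1.30 ± 0.27). All 5 of these genes lost their call without BIC 1, with adjusted p of 0.0516 to 0.103 as the highest over the leave-outs; Mrpl20 and Mrps27 lost it also without BIC 2, and Rplp0 and Mrps22 without any BIC library.

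Nuclear genes of oxidative phosphorylation rose in 19 of 32 cases and fell in 0, with a median of 0.74. Sdhb, a subunit of complex II, rose from 72.4 to 80.0 CPM to 125 to 183 CPM (0.98 ± 0.16, adjusted p = 0.00754). Ndufa9 of complex I (0.87 ± 0.14, adjusted p = 0.00828) and the ATP synthase genes Atp5a1 (0.96 ± 0.16, adjusted p = 0.00834) and Atp5b (1.21 ± 0.23, adjusted p = 0.0118) rose by similar amounts. The 13 protein-coding genes of the mitochondrial genome did not follow: 0 were called by edgeR, DESeq2 or limma-voom, 0 had an unadjusted edgeR p under 0.05, and their median was -0.01. Their share of all counts was 2.66% ± 0.353 (SD, n = 3) in BIC and 2.80% ± 0.733 (SD, n = 6) in pBIC, a difference of 0.138 percentage points (exact two-sided permutation test over 84 splits, p = 0.810, where the smallest possible is 0.0238). The 4 nuclear genes named lost their calls without BIC 1, and Atp5b without BIC 2 as well (adjusted p up to 0.0751); 0 of the 32 were called without BIC 1, 3 without BIC 2 and 4 without BIC 3.

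Glycolysis genes rose in 11 of 21 cases and fell in 0, with a median of 1.21. Slc16a1, the lactate transporter MCT1, rose from 3.87, 3.53 and 1.62 CPM in BIC to 26.9, 143, 171, 170, 187 and 73.7 CPM in pBIC 1 to 6 (5.42 ± 0.72, adjusted p = 0.00515). The lowest pBIC value, that of pBIC 1, was above every BIC value, and YC averaged 51.6 ± 11 CPM (SD, n = 3). Gapdh (566 to 643 against 993 to 2297 CPM; 1.38 ± 0.26, adjusted p = 0.0125), Tpi1 (1.45 ± 0.30, adjusted p = 0.0145) and Pfkm (2.56 ± 0.54, adjusted p = 0.0167) are enzymes of the pathway. Hk2 (adjusted p = 0.295) and the glucose carrier Slc2a1 (adjusted p = 0.695) were not called. Only 1 of the 21 genes was called without BIC 1, 1 without BIC 2 and 2 without BIC 3, with medians of 1.31, 1.38 and 1.13. Gapdh and Tpi1 were lost without any BIC library and Pfkm without BIC 1 or BIC 2 (adjusted p up to 0.0878).

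Building blocks for growth followed. In nucleotide synthesis 12 of 23 genes rose and 0 fell (median 1.23), among them Ctps, CTP synthase (26.5 to 41.6 against 74.3 to 154 CPM; 1.93 ± 0.27, adjusted p = 0.00559). In amino acid and serine metabolism 11 of 21 rose and 0 fell (median 1.77). Shmt2, the mitochondrial enzyme that passes one-carbon units from serine, rose from 97.1 to 120 CPM to 313 to 524 CPM (1.77 ± 0.21, adjusted p = 0.00462). Slc1a4, a carrier of serine and alanine, rose from 2.83 to 5.24 CPM to 14.6 to 21.2 CPM (2.16 ± 0.28, adjusted p = 0.00478). Psph, the last step of serine synthesis, and Mthfd2, a folate enzyme, rose by 1.51 ± 0.23 and 1.43 ± 0.22 (adjusted p = 0.00710 for each). Cholesterol synthesis had 4 of 20 genes higher and 0 lower (median 0.57), against 7.99% higher and 6.12% lower among all tested genes. Among the 4 were Idi1 (1.80 ± 0.35, adjusted p = 0.0127), Insig1 (1.97 ± 0.49, adjusted p = 0.0271) and Sqle (2.68 ± 0.71, adjusted p = 0.0344). Of 22 genes of the unfolded protein response 0 were called by edgeR, 2 by DESeq2 and 1 by limma-voom, 4 had an unadjusted edgeR p under 0.05, and the median was 0.16 (-0.02 without BIC 3). The nucleotide and amino acid lists each lost calls without BIC 1, to 5 of 23 and 5 of 21, with medians of 1.12 and 1.68. The cholesterol median was 0.28 against BIC 3 alone, and Sqle was at 1.36 with the neutrophil term. Idi1 was lost without BIC 1 or BIC 2, Insig1 without any BIC library, and Sqle also without pBIC 2 (adjusted p up to 0.137).

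Genes of the B cell programme were lower or not called. Of 22 B cell identity genes 6 fell and 0 rose, with a median of -0.90. Ptprc, which encodes CD45 and its B cell form B220, fell from 1118 to 1357 CPM in BIC to 443 to 769 in pBIC (-1.19 ± 0.20, adjusted p = 0.00883). Ms4a1, which encodes CD20, was at 2069, 2030 and 2319 CPM in BIC and at 1541 CPM in pBIC 1 but 286 to 727 in the other pBIC libraries (-1.72 ± 0.45, adjusted p = 0.0342). The transcription factor gene Pou2f2 (-1.07 ± 0.21, adjusted p = 0.0141) and the kinase gene Blk (-1.15 ± 0.28, adjusted p = 0.0248) fell too. Pax5 was not called (adjusted p = 0.518). The list mean was 8.55 to 8.95 log2 CPM in BIC, 7.04 to 8.37 in pBIC and 9.36 to 9.57 in YC. The log2 fold change of Pou2f2 was -0.34 with the neutrophil term and -0.62 against BIC 3 alone. Pou2f2 was lost without BIC 1 or BIC 2, Blk without any BIC library, and Ms4a1 also without pBIC 2 or 3 (adjusted p up to 0.108).

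In B cell receptor signalling 7 of 28 genes fell and 0 rose, and the log2 fold change was negative for all 28 (median -0.69). Syk, the kinase next to the receptor, fell from 2392, 2227 and 1754 CPM in BIC to 482 to 911 CPM in pBIC (median 603; -1.67 ± 0.23, adjusted p = 0.00517). Lyn, which phosphorylates the receptor chains, fell from 434 to 486 CPM to 137 to 238 CPM (-1.30 ± 0.20, adjusted p = 0.00676), and the adaptor gene Bank1 from 414 to 561 CPM to 136 to 248 CPM (-1.39 ± 0.21, adjusted p = 0.00710). Dapp1, another adaptor, fell by 0.85 on the log2 scale (adjusted p = 0.0274), whereas Btk was level (-0.09 ± 0.26, adjusted p = 0.852). Syk, Lyn, Bank1 and Ptprc were called with any 1 library left out. The immunoglobulin genes took 1.54% ± 0.394 of all counts in BIC (SD, n = 3) and 1.0% ± 0.376 in pBIC (SD, n = 6), a difference of -0.541 percentage points (exact two-sided permutation p = 0.0952, 0.190 after adjustment over the 2 shares tested). Dapp1 was lost without any BIC library or pBIC 5 (up to 0.105).

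By B cell stage, 7 of 21 genes of memory and age-associated B cells fell and 0 rose (median -1.36). Ahnak, a large scaffold protein, fell from 1768 to 2104 CPM to 413 to 821 CPM (-1.62 ± 0.21, adjusted p = 0.00509). Cd80, a co-stimulatory ligand, fell from 53.1 to 75.6 CPM to 13.6 to 31.0 CPM (-1.47 ± 0.25, adjusted p = 0.00922), and Cd38 by 1.36 on the log2 scale (adjusted p = 0.0194). Itgam, which encodes CD11b and is shared with myeloid cells, fell by 2.29 (adjusted p = 0.0139), and BIC 3 had the lowest BIC level at 15.5 CPM, against 2.01 to 8.29 in pBIC. Of 17 marginal zone genes 5 fell and 0 rose (median -1.12). Dtx1, a Notch target, fell from 347 to 406 CPM to 43.8 to 115 CPM (-2.35 ± 0.29, adjusted p = 0.00476), and Cd9, a tetraspanin, from 98.1 to 146 CPM to 23.7 to 51.3 CPM (-1.59 ± 0.28, adjusted p = 0.00975). S1pr3, a lipid receptor, and Fcrl5 fell by 2.73 and 2.15, with adjusted p of 0.0316 and 0.0312. Naive follicular genes fell in 2 of 20 cases, against 6.12% of all tested genes. These were Il4ra (-1.83 ± 0.33, adjusted p = 0.0109) and Btla (-1.47 ± 0.32, adjusted p = 0.0184). With the neutrophil term the memory median was -0.90 (also without BIC 3), Cd38 was at -0.78 and Itgam at -1.03. The marginal zone median was -0.66 without BIC 3, and Il4ra was at -1.14 against BIC 3 alone. Ahnak and Dtx1 were called with any 1 library left out. Cd80 and Cd9 were lost without BIC 1, and Cd38, Itgam, Il4ra and Btla without BIC 1 or BIC 2 (adjusted p up to 0.0927). S1pr3 and Fcrl5 were lost without any BIC library or pBIC 4, and Fcrl5 without pBIC 5 too (up to 0.122).

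Germinal centre genes were called higher in 2 of 23 cases, Fanca and Stil, which are genes of DNA repair and of centriole assembly, a share near the 7.99% of all tested genes, and the list median was 0.03 (-0.27 with limma-voom). Their list mean was 3.02 to 3.75 log2 CPM over the 9 tumours and 6.49 to 7.15 in YC, so that neither model reached the level of the sorted control cells. Bcl6, the defining factor of germinal centre B cells, was at 0.357 to 9.30 CPM in the tumours and averaged 238 in YC. Of the 20 plasma cell genes 0 were called by edgeR, 3 by DESeq2 and 1 by limma-voom, 4 had an unadjusted edgeR p under 0.05, and the median was -0.48. That median turned to 0.67 with the neutrophil term, where 17 of the 20 fold changes were positive, and to 0.55 against BIC 3 alone, where 14 were. The plasma cell genes Sdc1 and Jchain were at 0.153 to 6.33 and 0.662 to 64.2 CPM over the tumours, against YC means of 12.8 and 633. Stil was at 1.34 with the neutrophil term and was not called without BIC 1 or BIC 2 (adjusted p up to 0.0569).

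Antigen presentation by MHC class II was the B cell function with the largest share of lower genes, 10 of 16, with 0 higher and a median of -1.26. H2-Aa was at 3837, 3488 and 2726 CPM in BIC and at 1369, 1534, 957, 749, 1223 and 1019 CPM in pBIC 1 to 6 (-1.55 ± 0.23, adjusted p = 0.00604). H2-Ab1, its partner chain, fell from 2450 to 3174 CPM to 698 to 1467 CPM (-1.52 ± 0.23, adjusted p = 0.00708), and H2-Eb1 from 2788 to 3815 CPM to 804 to 1826 CPM (-1.47 ± 0.26, adjusted p = 0.00975). H2-DMb2 (-1.4 ± 0.24, adjusted p = 0.00922) and H2-DMa (-1.30 ± 0.23, adjusted p = 0.0103) load peptides on these chains. Ciita, the master regulator of the class, was at 428, 569 and 240 CPM in BIC and at 43.5 to 269 in pBIC, with pBIC 2 above BIC 3 (-1.53 ± 0.46, adjusted p = 0.0513). The list mean was 8.27 to 8.80 log2 CPM in BIC, 7.19 to 7.77 in pBIC and 8.65 to 8.72 in YC, and BIC 3 had the lowest BIC value. Without BIC 1, 2 and 3 the counts were 3, 2 and 7 of 16, and with the neutrophil term 0 at a median of -0.82. In that fit H2-Ab1 was at -0.96 and H2-Eb1 at -0.89, and against BIC 3 alone the list median was -0.75. H2-Aa and H2-Ab1 were called with any 1 library left out, while H2-Eb1 and H2-DMa were lost without BIC 1 or BIC 2 and H2-DMb2 without BIC 2 (adjusted p up to 0.0630).

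MHC class I presentation had 3 of 22 genes lower and 0 higher (median -0.62), against 6.12% lower and 7.99% higher among all tested genes. H2-M3 (93.1 to 151 against 20.5 to 53.4 CPM; -1.57 ± 0.28, adjusted p = 0.0102), H2-Q7 (-1.47 ± 0.31, adjusted p = 0.0159) and H2-T23 (-1.21 ± 0.32, adjusted p = 0.0344) belong to the less polymorphic class I genes, which have similar copies. With the neutrophil term the list median was -0.00, with 11 fold changes in each direction, and H2-M3, H2-Q7 and H2-T23 were at -0.94, -0.49 and -0.34. The median was -0.17 against BIC 3 alone, with H2-Q7 at -0.64 and H2-T23 at -0.66, and -0.35 without BIC 2. The shared light chain gene B2m was not called (-0.64 ± 0.29, adjusted p = 0.161). Among checkpoint and co-stimulation genes 9 of 32 tested fell and 0 rose (median -0.77, and -0.45 with the neutrophil term). Tnfsf8, the CD30 ligand, fell from 110, 85.2 and 22.8 CPM in BIC to 0 to 0.567 CPM in pBIC (-7.85 ± 0.87, adjusted p = 0.00462), and its receptor gene Tnfrsf8 from 15.3 to 54.5 CPM to 4.31 to 12.9 CPM (-1.72 ± 0.43, adjusted p = 0.0298). Tnfsf4, the OX40 ligand, fell from 12, 7.65 and 58.3 CPM to 0.236 to 2.17 CPM (-4.94 ± 0.88, adjusted p = 0.00996), with the highest BIC level in BIC 3. Sirpa, the receptor for CD47, fell from 169 to 248 CPM to 10.2 to 34.7 CPM (-3.16 ± 0.37, adjusted p = 0.00462), with YC at 36.6 ± 1.06 CPM (SD, n = 3). Tnfsf8 and Tnfsf4 averaged 0.727 and 1.12 CPM in YC, nearer to pBIC than to BIC. Cd274, which encodes PD-L1, was at 224 to 238 CPM in BIC and at 99.3 to 606 in pBIC (adjusted p = 0.767), and Pdcd1lg2, which encodes PD-L2, at 97.5 to 133 and 5.0 to 67.9 CPM (-1.83 ± 0.59, adjusted p = 0.0649). Tnfsf8, Tnfsf4 and Sirpa were called with any 1 library left out. The 3 class I genes were lost without BIC 1 or BIC 2, H2-T23 without pBIC 4 too, and Tnfrsf8 without BIC 1, BIC 2 or pBIC 3 (adjusted p up to 0.205).

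Signalling lists held fewer called genes, to be read against the 7.99% higher and 6.12% lower among all tested genes. Of 20 components of the NF-kB pathways 3 fell and 0 rose (median -0.37): Map3k14, the NIK kinase of the alternative branch (44.7 to 50.1 against 25.6 to 30.8 CPM; -0.73 ± 0.13, adjusted p = 0.0111), Bcl3 (-1.05 ± 0.25, adjusted p = 0.0249) and Nfkb2 (-0.88 ± 0.22, adjusted p = 0.0264). With the neutrophil term Bcl3 was at -0.30 and Nfkb2 at -0.58. Of 36 NF-kB targets 2 rose and 4 fell (median -0.37, with -0.19 without BIC 2 and -0.05 against BIC 3 alone). Gadd45b rose from 4.38 to 14.6 CPM to 16.7 to 54.4 CPM (2.15 ± 0.54, adjusted p = 0.0287), with YC at 209 ± 82.9 CPM (SD, n = 3), and Sod2, a mitochondrial superoxide dismutase, rose by 0.86 ± 0.18 (adjusted p = 0.0167; 0.38 with the neutrophil term). Tnfaip3, which encodes the NF-kB inhibitor A20, was at 2490 CPM in pBIC 1 and 2647 in pBIC 6, at 176 to 414 in the other pBIC libraries and at 360 to 721 in BIC (adjusted p = 0.513). In JAK-STAT and cytokine signalling 3 of 22 fell and 0 rose (median -0.58), Il10ra (-1.43 ± 0.27, adjusted p = 0.0117), Jak3 (-1.18 ± 0.22, adjusted p = 0.0119) and Jak1 (-0.94 ± 0.24, adjusted p = 0.0305). Of 30 type I interferon genes 0 were called by edgeR, DESeq2 or limma-voom and 4 had an unadjusted edgeR p under 0.05 (median 0.05), although Ifit1 reached 33.8 CPM in pBIC 1 and 212 in pBIC 6 against at most 3.96 in the other pBIC libraries and 3.96 to 4.79 in BIC. Of 22 immediate-early and heat-shock genes 0 were called by edgeR or limma-voom and 2 by DESeq2, and 2 had an unadjusted edgeR p under 0.05 (median 0.14). That median turned to -1.27 with the neutrophil term, to -1.09 with the Xist term, to -0.21 with limma-voom and to -0.15 without BIC 1 or against BIC 3 alone. Their mean was 7.44 and 7.40 log2 CPM in pBIC 1 and 6 and 4.95 to 5.68 in the other 4, so that the pair of libraries nearest to BIC on the first component also stood apart in these genes. Il10ra was lost without BIC 1, and Map3k14, Bcl3, Nfkb2, Sod2 and Jak3 without BIC 1 or BIC 2 (adjusted p up to 0.118). Gadd45b was lost without BIC 1, BIC 3 or pBIC 2, and Jak1 without any BIC library or pBIC 3 (up to 0.136).

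**Figure D4:**
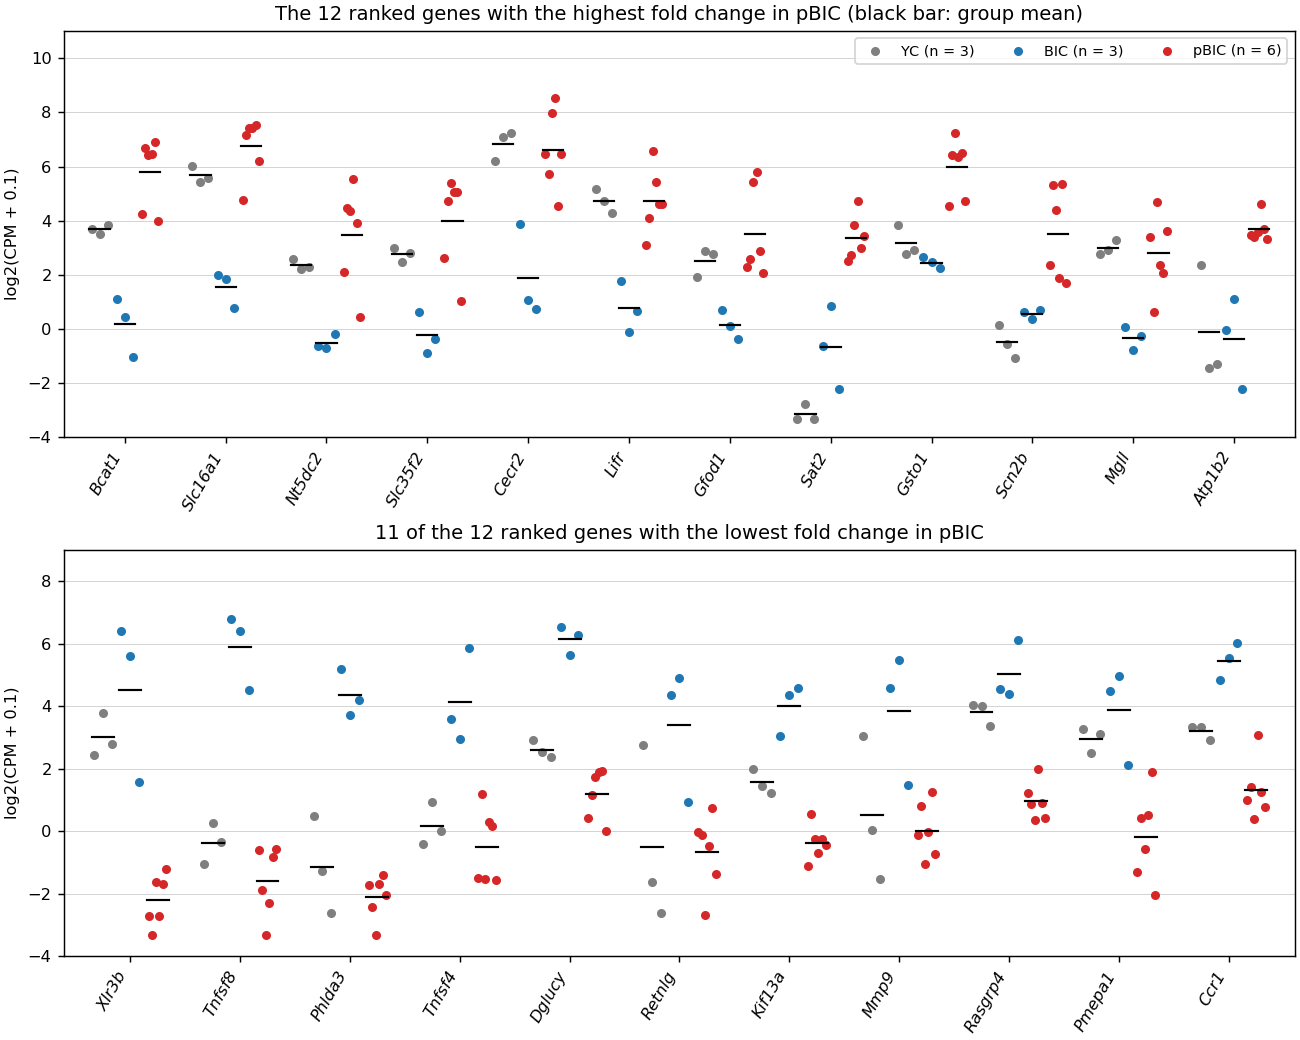
Levels, as log2(CPM + 0.1), of the 12 ranked genes with the highest (upper panel) and 11 of the 12 with the lowest (lower panel) log2 fold change of pBIC against BIC, 1 point per library and a black bar at each group's mean. The BIC and pBIC points do not overlap for any gene shown, since the ranking required it, and BIC 3 lies well below BIC 1 and 2 for Xlr3b, Retnlg, Mmp9 and Pmepa1.

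The genes with the largest differences, ranked over called, non-overlapping genes that averaged 5 CPM or more in the 9 libraries, are a description of the tails. Bcat1, which breaks down branched-chain amino acids, was at 2.07, 1.25 and 0.390 CPM in BIC and at 19.1, 102, 86.4, 88.5, 120 and 15.8 CPM in pBIC 1 to 6 (5.85 ± 0.95, adjusted p = 0.00769). Slc16a1 came next, and then Nt5dc2 (4.89 ± 1.10), the carrier gene Slc35f2 (4.80 ± 1.04), the chromatin reader gene Cecr2 (4.58 ± 1.18) and Lifr, a cytokine receptor gene (4.25 ± 0.89). pBIC 1 or pBIC 6 held the lowest pBIC level of Bcat1, Slc16a1, Nt5dc2, Slc35f2 and Lifr. Gfod1 (4.24 ± 1.14), Sat2, Gsto1, a glutathione transferase gene (3.82 ± 0.65), the sodium channel subunit gene Scn2b (3.78 ± 1.04), Mgll, which encodes monoacylglycerol lipase (3.75 ± 0.90), and Atp1b2 completed the 12. With the neutrophil term Mgll was at 1.30. Bcat1 and Slc16a1 were called with any 1 library left out. Gsto1 was lost without BIC 1 or BIC 2 and the other genes of this paragraph, apart from Sat2 and Atp1b2 (above), without any BIC library, Cecr2 and Gfod1 also without pBIC 3 and Scn2b without pBIC 2, 3 or 5 (adjusted p up to 0.149).

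Several of these genes were expressed in YC as well. Bcat1 averaged 12.8 ± 1.34 CPM, Cecr2 121 ± 41.7, Lifr 27.5 ± 8.35 and Mgll 7.93 ± 1.5 CPM (SD, n = 3), each mean above every BIC library. Gsto1 (9.43 ± 4.19 CPM) and Scn2b (0.653 ± 0.325 CPM) in YC were nearer to BIC than to pBIC.

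At the low end, Xlr3b was at 84.7, 48.6 and 2.87 CPM in BIC and at 0 to 0.331 CPM in pBIC (-8.28 ± 1.11, adjusted p = 0.00515); it has near-identical copies on the X chromosome, so its counts are uncertain. Tnfsf8, Phlda3 and Tnfsf4 were also among the lowest. Dglucy, a mitochondrial enzyme gene, fell from 93.7, 50.2 and 77 CPM to 0.897 to 3.69 CPM (-4.90 ± 0.46, adjusted p = 0.00380), and Kif13a, a kinesin gene, from 8.23 to 23.9 CPM to 0.356 to 1.36 CPM (-4.59 ± 0.48, adjusted p = 0.00440). In both, BIC 3 was within the range of BIC 1 and 2 or above it. Rasgrp4 (23.5, 20.7 and 69.7 CPM in BIC and 1.18 to 3.86 in pBIC; -4.25 ± 0.49) and Ccr1, a chemokine receptor gene (28.3, 46.2 and 64.4 against 1.21 to 8.39 CPM; -3.96 ± 0.58), had their highest BIC level in BIC 3. Retnlg and Mmp9, which are neutrophil markers, had 1.81 and 2.68 CPM in BIC 3 against 20.6 to 44.5 in BIC 1 and 2. Pmepa1, a regulator of TGF-beta signalling, had 4.24 CPM in BIC 3 against 22.5 and 31.4 in BIC 1 and 2, with pBIC at 0.142 to 3.64 CPM (-4.0 ± 0.91, adjusted p = 0.0208). Against BIC 3 alone the log2 fold changes of Xlr3b, Retnlg, Mmp9 and Pmepa1 were -4.30, -1.36, -1.31 and -1.81, and that of Pmepa1 was -0.75 with the neutrophil term. Retnlg and Pmepa1 were lost without BIC 1 or BIC 2 and Mmp9 without BIC 2 (adjusted p up to 0.0916), and the other genes named in this paragraph were called with any 1 library left out.

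All 16 neutrophil markers fell in pBIC (median -4.82), while few markers of other cell types were called. The fold change was still negative for 23 of 24 T cell, 19 of 24 macrophage and monocyte, 10 of 12 dendritic cell and 9 of 12 NK cell markers. The means of these lists did not overlap between BIC and pBIC, whereas the neutrophil mean did. Erythroid markers had 9 of 14 fold changes positive. For any of these cell types, fewer cells and less RNA per cell cannot be told apart in bulk RNA. S100a8, a calcium-binding protein of neutrophil granules, was at 163, 277 and 11.3 CPM in BIC and at 0.968 to 15.3 CPM in pBIC (-4.94 ± 1.04, adjusted p = 0.0164), so that BIC 3 lay below pBIC 5. Ly6g was at 3.05, 3.82 and 0.502 CPM in BIC and at 0 to 0.172 in pBIC. Cxcr2 (-4.04 ± 0.64, adjusted p = 0.00730) and Csf3r (-3.95 ± 0.67, adjusted p = 0.00909), receptors that guide and sustain neutrophils, fell as well. Elane was at 0 in pBIC 3 and pBIC 6 and at most 0.829 CPM in the other pBIC libraries. Against BIC 3 alone 0 of the 16 were called, at a median of -1.22, with Cxcr2 at -2.10 and Csf3r at -2.01. S100a8 was lost without BIC 1 or BIC 2 and Csf3r without BIC 2 (adjusted p up to 0.0751).

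**Figure D5:**
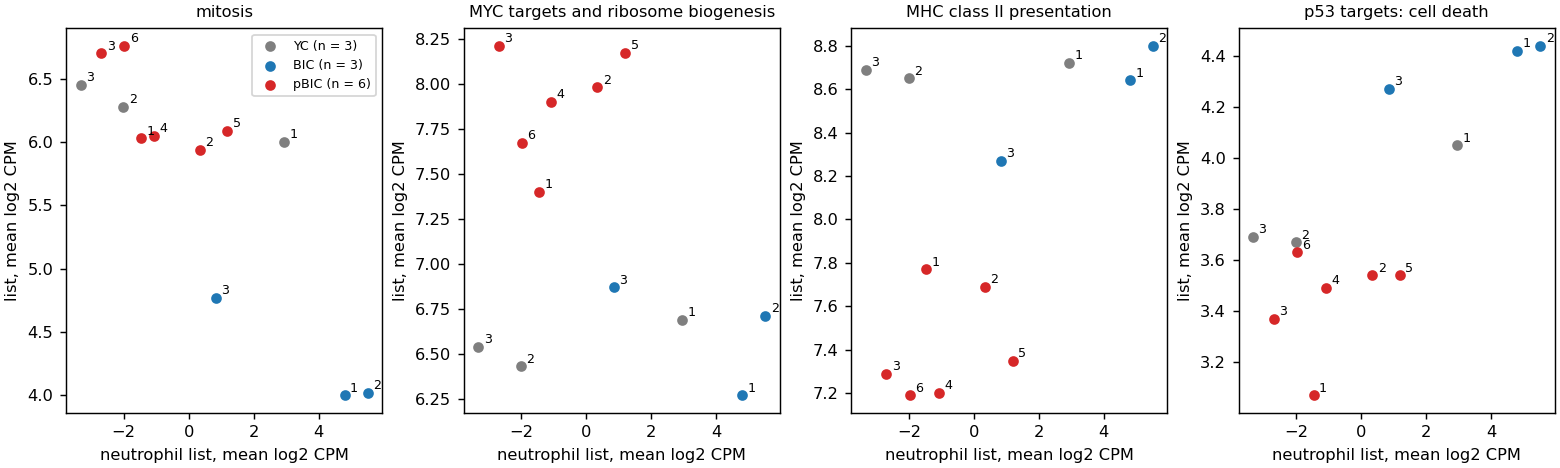
Mean log2 CPM of 4 gene lists (1 panel each, vertical axis) against the mean log2 CPM of the 16 neutrophil markers (horizontal axis), 1 numbered point per library in the colour of its group. BIC 3, at 0.84 on the horizontal axis, lies below pBIC 5 (1.19) and is outside the range of the 6 pBIC libraries in each of the 4 list means. That position was fixed by the choice of lists, whose means do not overlap between BIC and pBIC. For the cell death targets the median log2 fold change against BIC 3 alone was 0.03.

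Of 24 T cell markers tested 2 fell and 0 rose (median -1.11). Cd3g was at 86.9, 84.9 and 12 CPM in BIC and at 1.48 to 8.46 CPM in pBIC (-3.92 ± 0.71, adjusted p = 0.0107), while Cd3d and Cd3e, of the same receptor complex, were at 2.17 to 5.69 CPM in BIC and were not called. The log2 fold change of Cd3g was -0.84 with the neutrophil term and -1.58 against BIC 3 alone. Cd2 fell by 1.15 (adjusted p = 0.0438). The summed level of the T cell markers was 424 to 510 CPM in BIC and 103 to 335 in pBIC. Among 24 macrophage and monocyte markers 2 fell, Itgam and Spic (-2.58 ± 0.53, adjusted p = 0.0148), with sums of 257 to 411 CPM in BIC and 46.2 to 445 in pBIC, the highest of all in pBIC 6. Both edgeR counts are near the 6.12% of all tested genes called lower. DESeq2 called 4 of the T cell and 5 of the macrophage and monocyte markers lower, and limma-voom 4 and 6. Over all tested genes these 2 tests called 23.9% and 14.9% in either direction. The macrophage median was -1.08, but -0.20 with the neutrophil term and -0.31 against BIC 3 alone. Megakaryocyte markers fell in 2 of 9 cases, Ppbp (-4.18 ± 0.92, adjusted p = 0.0191) and Pf4 (-2.49 ± 0.70, adjusted p = 0.0412), both at most 5.64 CPM. Of 12 dendritic cell markers 1 fell, Sirpa, a share near the 6.12% of all tested genes. The dendritic sums were 610 to 1038 CPM in BIC and 231 to 623 in pBIC. The dendritic median turned from -0.52 to 0.24 with the neutrophil term. Of 14 erythroid markers 1 rose, a share near the 7.99% of all tested genes called higher. It was Tfrc, the transferrin receptor that dividing cells also use (1.63 ± 0.42, adjusted p = 0.0312). The defining gene Alas2 was at 1.18 to 19.1 CPM with no call. The erythroid median was 0.21, and it ran from -0.27 without BIC 3 to 2.94 with the neutrophil term. Of 12 NK cell markers 0 were called by edgeR, 2 by DESeq2 and 1 by limma-voom, and 3 had an unadjusted edgeR p under 0.05 (median -1.5). Of 9 stromal and endothelial markers 0 were called by edgeR or limma-voom and 1 by DESeq2, and 0 had an unadjusted edgeR p under 0.05 (median -0.68, and 0.04 without BIC 3). The NK cell receptor gene Ncr1 was at 0 to 0.502 CPM in all 9 tumours. Cd3g was lost without BIC 1 or BIC 2, Spic without BIC 1, Ppbp without BIC 2, Tfrc without any BIC library or pBIC 2 or 3 (adjusted p up to 0.144), and Cd2 and Pf4 without any of 7 libraries in turn (up to 0.185). The part of these cells in the differences described above was not tested beyond the neutrophil term and the fit against BIC 3 alone.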

How the data were processed

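Poly(A) RNA of sorted splenic B cells was sequenced as pairs of 100-base reads, per the labels' protocols. Each deposited table holds unnormalized gene counts made by the authors with featureCounts 1.5.0 over exons of the GENCODE M13 genes, per the file headers; mates were counted as separate reads, without strand, and multi-mapping reads were left out, so genes with near-identical copies or overlapping antisense genes are uncertain. The submitters' processing notes name FastQC, STAR, edgeR and limma and the builds mm10 and GRCm38. Names came from GENCODE M21 (50462 of 50686 genes); coordinates are 1-based on GRCm38.

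The 3 BIC and 6 pBIC libraries were compared in edgeR 4.0.16 (R 4.3.3; TMM, default expression filter with a minimum count of 10, robust quasi-likelihood F test, Benjamini-Hochberg over 16853 genes, called under 0.05) and with the alternatives of the closing section, DESeq2 1.42.0 and limma 3.58.1 among them. The test was checked on simulated counts. A standard error (SE) is the log2 fold change over the square root of F. CPM of YC are on the same scale. The 42 gene lists were described by counts and medians, with no test of a list. The comparison and the lists were chosen with earlier results of these data known. Named by rule were Trp53, Prdm1 and Ikbkb, the 12 highest and 12 lowest genes as ranked in the text (immunoglobulin and T cell receptor segments, model genes, pseudogenes, Xist and Y-linked genes left out) and up to 4 members a list in order of p; other genes named were chosen after their values were seen. A few genes that the rule names are not reported here. Replicates are separate mice, per the series' design text. Promoter windows came from RefSeq (GRCm38.p6).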

Additional observations from a re-analysis of the deposited data

Results flagged for a closer look

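In the 6 pBIC libraries, 12 of 129 values examined had 1 library set apart from the other 5 by more than 0.625 of the group's range; chance gives about 1 in 20. Pmepa1 was at 3.64 CPM in pBIC 5 against 0.142 to 1.34 in the other pBIC libraries. Ccr1 was at 8.39 CPM in pBIC 4 against 1.21 to 2.54. Atp1b2, next to Trp53, was at 24.6 CPM in pBIC 4 against 9.82 to 12.9. The p53 target Ccng1 was at 138 CPM in pBIC 1 against 62.8 to 90.5.

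Rad54l was at 39.4 CPM in pBIC 4, below the 43.3 to 45.3 of the others, and Ndufa9 at 101 CPM in pBIC 5 against 79.0 to 84.5; both gaps were small in absolute terms. pBIC 3 stood apart in 4 genes: Shmt2 (524 CPM against 313 to 374), Slc1a4 (14.6 against 18.8 to 21.2), Sqle (164 against 21 to 49.8) and Jak3 (54.3 against 102 to 116). pBIC 1 was the highest in Insig1 (149 CPM against 32.5 to 71.3) and in Ms4a1 (1541 CPM against 286 to 727). Groups of 3 were not examined in this way.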

How the results depend on the processing

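Of 20 alternatives, 19 were planned and 1, BIC 3 alone as the BIC group, was chosen after seeing the data and assumes that the lone library varies like the pBIC libraries. The count of 2377 called genes was 4034 with DESeq2, 7 with a term for neutrophil markers, 6 against BIC 3 alone and 139 with the replicate number as a block; with each library left out in turn it ran from 300 (without BIC 1) to 2911 (without pBIC 1). The share of calls higher in pBIC, 56.6%, was 74.1% with the replicate block, 14.3% with the neutrophil term and 42.7% without BIC 1, where few genes were called. Same-numbered libraries correlated at -0.091, 0.168 and 0.115 in their deviations from the group means. BIC 1 and BIC 2 correlated best with pBIC 5 (0.144 and 0.242), and BIC 3 with pBIC 1 (0.173). Whether a shared number marks a shared batch was not tested. The direction of called genes was the same for 99.0% with the neutrophil term, for 99.6% against BIC 3 alone and for 100% in each of the other 18 alternatives. These genes were called from the same libraries, so their direction was largely fixed in advance and is no independent support. Of 127 named genes, 26 held their side of the threshold with the block, 2 with the neutrophil term, 2 against BIC 3 alone, 56, 68 and 101 without BIC 1, 2 and 3, and 119 to 126 without 1 pBIC library. Prdm1 reversed to 1.56 with the neutrophil term and 1.11 against BIC 3 alone, and Ikbkb to -0.21 and -0.15, neither called. The share of counts from mitochondrially encoded genes reversed to -0.0688 percentage points without pBIC 1; over all leave-outs it ran from -0.0688 to 0.342, and the share of counts from immunoglobulin genes from -0.767 to -0.412. The cause of these changes was not tested. At these depths a gene under 0.0637 to 0.0841 CPM cannot be told from 0.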

Other observations

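pBIC 1 and pBIC 6 shared levels in genes of several lists that no test of the groups picked out. Plk2 was at 657 and 1249 CPM in them against at most 26.3 in the other 4 pBIC libraries, Tnfaip3 at 2490 and 2647 against at most 414, Egr1 at 715 and 1792 against at most 274, Ddit3 at 110 and 193 against at most 35.4, and Ifit1 at 33.8 and 212 against at most 3.96. The mean of the NF-kB target list was 5.83 and 6.09 log2 CPM in this pair and 3.97 to 4.83 in the other pBIC libraries. Of the 2 libraries, pBIC 6 had 11.7 CPM of Cdkn2a and pBIC 1 had 206. The deposited tables of pBIC 1 to 3 carry the letter h in their names and those of pBIC 4 to 6 the letter l, which the labels do not explain and which was not used here; the pair holds 1 of each. These are values with no comparison.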
